A study of Homo sapiens with 9 samples.

Results

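The direct comparison of a MYC hairpin with an SLC7A5 hairpin was made in Daudi cells, a line of B cells grown from a Burkitt lymphoma, where a translocation has put MYC under immunoglobulin gene control. The comparison set 3 arrays of cells infected with a short hairpin RNA against MYC (C-Myc-sh) beside 3 arrays of cells infected with one against SLC7A5 (Slc7a5-sh), which is 6 of the 9 arrays of the series. The 6 arrays were taken by their titles, but the comparison itself was chosen with earlier results of these data known. The other 3 arrays, from cells infected with a control hairpin (Ctrl-sh), entered the estimate of the spread but not the difference. All 9 samples had been selected with puromycin for 48 h after infection, and the C-Myc-sh cells were the study's positive control. The arrays are labelled as biological replicates, but the labels do not say whether each came from its own infection, so the p-values measure the spread between these samples, which may be technical. The labels also do not say how many hairpins were used for each gene, and Daudi is a single line, known to carry Epstein-Barr virus. Of 19775 genes with a usable probe set, 11250 had a mean signal that reached the median probe set (5.77 on the log2 scale, called the filter level) and were tested.

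MYC is a transcription factor that binds DNA with its partner MAX at the E-box, and it is known for raising ribosome production, nucleotide synthesis and cell cycle entry. Burkitt lymphoma arises from germinal centre B cells and is known for low expression of MHC class I and NF-kB target genes beside its high MYC targets. SLC7A5, also called LAT1, is the transporting light chain of a membrane carrier that brings large neutral amino acids such as leucine into the cell in exchange for glutamine, while SLC3A2 is its heavy chain. Loss of amino acid supply is sensed through mTORC1, a growth-promoting kinase, and through GCN2, a kinase whose target ATF4 switches on amino acid synthesis and transport genes. The comparison therefore sets a hairpin against the transcription factor beside a hairpin against the transporter in the same cells. The levels that MYC and SLC7A5 reached are given below.

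Promoter stretches of genes at the centre of the results are given here because the gene groups described below hold these DNA words at differing shares. They were taken from the RefSeq table of build GRCh38.p14 and end at the base before the gene start. The words were searched on both strands over the table's window of 250 bases before to 50 after the start, and overlapping matches were kept. In each stretch only the matches to the word it is shown for are in capitals. Matches to the other words stay in lower case. The ISRE word, a pair of GAAA parted by any 2 bases, is the core of the element bound by interferon-activated factors. IFI44L lies at chr1:78620268-78620447, IFIT1 at chr10:89392493-89392622 and ISG15 at chr1:1013367-1013496, all on the plus strand, and TAP1 at chr6:32853705-32853854 on the minus strand.
IFI44L: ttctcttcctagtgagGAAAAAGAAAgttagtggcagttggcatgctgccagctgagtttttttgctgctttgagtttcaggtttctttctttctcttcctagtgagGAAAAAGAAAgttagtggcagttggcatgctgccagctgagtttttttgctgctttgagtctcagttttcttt
IFIT1: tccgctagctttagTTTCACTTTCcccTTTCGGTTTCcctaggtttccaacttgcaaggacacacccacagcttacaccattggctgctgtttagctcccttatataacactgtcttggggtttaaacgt
ISG15: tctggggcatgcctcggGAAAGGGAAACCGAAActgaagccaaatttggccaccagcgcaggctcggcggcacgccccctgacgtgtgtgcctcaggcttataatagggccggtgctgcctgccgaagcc
TAP1: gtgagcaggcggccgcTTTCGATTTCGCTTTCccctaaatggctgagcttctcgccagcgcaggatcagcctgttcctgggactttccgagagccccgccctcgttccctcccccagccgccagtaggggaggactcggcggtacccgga
The kB word is the consensus bound by NF-kB and was searched as the degenerate motif of that name. CCL22, shown at chr16:57358583-57358782 on the plus strand, holds overlapping matches, and NFKBIA is shown at chr14:35404750-35404849 on the minus strand.
CCL22: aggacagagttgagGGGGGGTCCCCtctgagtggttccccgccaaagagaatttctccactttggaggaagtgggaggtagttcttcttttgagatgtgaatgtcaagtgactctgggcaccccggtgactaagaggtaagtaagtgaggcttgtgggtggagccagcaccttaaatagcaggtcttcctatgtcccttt
NFKBIA: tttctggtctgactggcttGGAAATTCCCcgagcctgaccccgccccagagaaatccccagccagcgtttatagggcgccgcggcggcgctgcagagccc
The E-box of MYC and MAX was searched as CACGTG. SRM is shown at chr1:11060019-11060228 on the minus strand and LDHA at chr11:18394363-18394562 on the plus strand.
SRM: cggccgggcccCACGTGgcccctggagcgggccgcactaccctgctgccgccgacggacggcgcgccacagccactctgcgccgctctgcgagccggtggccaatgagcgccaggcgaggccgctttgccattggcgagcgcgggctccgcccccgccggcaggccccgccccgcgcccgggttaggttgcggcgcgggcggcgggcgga
LDHA: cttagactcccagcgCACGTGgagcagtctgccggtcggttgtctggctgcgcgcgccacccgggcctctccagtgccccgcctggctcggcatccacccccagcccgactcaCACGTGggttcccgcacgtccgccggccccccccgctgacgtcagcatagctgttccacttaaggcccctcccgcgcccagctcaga
The amino acid response element (CARE), to which ATF4 binds, was searched as TGATGNAA, and CCAAT, the word of the NF-Y complex, as those letters. ASNS is shown at chr7:97872409-97872488 on the minus strand and HLA-DQA1 at chr6:32637326-32637405 on the plus strand.
ASNS: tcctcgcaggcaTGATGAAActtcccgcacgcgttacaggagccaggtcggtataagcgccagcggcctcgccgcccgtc
HLA-DQA1: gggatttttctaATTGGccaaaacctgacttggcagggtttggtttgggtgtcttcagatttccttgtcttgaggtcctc

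Among all promoters in the table, 3.65% hold the ISRE word, 10.8% the kB word, 7.43% the E-box, 3.67% the CARE word and 35.7% CCAAT. Of the 11250 tested genes, 9226 matched the table, and their shares were 2.88%, 12.6%, 10.5%, 1.9% and 37.6% in the same order. The ISRE word lay in 22 of 36 (61.1%) promoters of tested interferon-stimulated genes and in 8 of 19 (42.1%) of MHC class I genes. The kB word lay in 8 of 21 (38.1%) of NF-kB target promoters. The E-box lay in 22 of 48 (45.8%) of MYC-induced and 24 of 59 (40.7%) of ribosome biogenesis promoters. CARE lay in 10 of 37 (27%) of amino acid response promoters, and CCAAT in 12 of 16 (75%) of MHC class II and 34 of 47 (72.3%) of mitosis promoters. The words were also frequent in other lists. CCAAT lay in 85.2% of unfolded protein response, CARE in 33.3% of cytosolic aminoacyl-tRNA synthetase and kB in 66.7% of chemokine and cytokine promoters. The E-box lay in 25% of lysosome and autophagy promoters. Among genes called at least 2-fold higher with the MYC hairpin, 9.28% held the ISRE word, against 1.84% of those at least 2-fold lower. In the same order, the E-box lay in 6.39% and 11.8% of these sets, beside 10.5% of all tested genes. The kB word lay in 16.3% and 12.1%, CARE in 2.27% and 2.89%, and CCAAT in 40% and 37.9%. A match describes the letters of the window and does not show that a factor binds there.

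The targeted genes were read first. The MYC signal was 12.12, 12.14 and 12.13 in the C-Myc-sh arrays and 12.90, 12.79 and 12.93 in the Slc7a5-sh arrays on the log2 scale, so the groups did not overlap, and the control arrays lay higher still at 13.16, 13.26 and 13.24. With the MYC hairpin the MYC signal was 59.7% of that with the SLC7A5 hairpin, a log2 difference of -0.74 (SE 0.05, adjusted p = 4.08e-08, limma). The SLC7A5 signal was 11.79, 11.78 and 11.84 in the C-Myc-sh arrays and 11.86, 11.84 and 11.95 in the Slc7a5-sh arrays, against 12.06, 12.35 and 12.21 with the control hairpin. Its arrays did not overlap between the hairpins, but the difference of -0.08 did not pass (adjusted p = 0.351, limma, 95% interval -0.24 to 0.07). Both knockdowns thus had SLC7A5 signals below those of the control arrays, and the transcript named in the label of Slc7a5-sh was not lower in that group than in C-Myc-sh.

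The transporter's heavy chain, the partner of MYC, and the chromatin and receptor genes EZH2 and RXRA were read next. The signal of SLC3A2, the heavy chain of the transporter, was 11.06, 11.01 and 10.96 with the MYC hairpin against 10.71, 10.87 and 10.59 with the SLC7A5 hairpin, without overlap, a difference of 0.29 (SE 0.09, adjusted p = 0.0135, limma). This call was lost with arrays centred on their median (adjusted p = 0.0746), without Slc7a5-sh replicate 3 (0.0603) and without C-Myc-sh replicate 1 (0.0514). MAX was higher by 0.35 (adjusted p = 9.81e-04, limma), but its 1 probe set without a suffix for possible cross-binding gave -0.10 and did not pass (adjusted p = 0.903, limma). EZH2, the histone H3 lysine methyltransferase of Polycomb, was lower with the MYC hairpin (-0.27) (SE 0.05, adjusted p = 8.24e-04, limma), at 12.38 against 12.65 and 12.70 in the controls. RXRA, the retinoid X receptor, had array values that overlapped, 5.99, 6.14 and 6.86 against 6.43, 5.53 and 6.51, and its difference of 0.17 did not pass (adjusted p = 0.796, limma).

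Of the 11250 tested genes, 5569 differed between the hairpins at an adjusted p under 0.05 by limma (49.5%), 2743 of them higher (24.4%) and 2826 lower (25.1%) with the MYC hairpin. A difference of at least 1 on the log2 scale was called for 1088 genes (9.67%), of which 608 were higher (5.4%) and 480 lower (4.27%). In 6360 genes (56.5%) the 3 arrays of one group did not overlap the 3 of the other, higher in 28.8% and lower in 27.7%. Both group means were at or above the filter level for 5463 of the called genes (48.6% of those tested). The upper tail was longer than the lower one, with extremes of 9.13 for IFI44L and -3.51 for VWCE. Arrays of one knockdown correlated at 0.972 to 0.977 across the tested genes and arrays of different knockdowns at 0.928 to 0.933. Each array is scaled to one total, so a change in RNA per cell cannot be read, and in these bulk samples fewer cells of a type cannot be told apart from less RNA per cell. Since 49.5% of genes were called, each count below is read beside these shares and beside the median difference of all tested genes, 0.03. The gene lists share members, so their counts are not independent. Also in other lists were 47 of 63 listed MYC-induced, 22 of 74 ribosome biogenesis, 33 of 49 amino acid response and 30 of 38 NF-kB target genes. When a gene's probe sets were averaged in place of taking the brightest one, the calls of 19 of the genes named here were lost, among them TRAP1, TSC22D3, VARS1, CIITA, CD74, RB1, TFRC and SLC19A1. Without probe sets whose suffix marks possible cross-binding, 12 were lost, among them TCF3, ASNS, TKT, NCL and TPP1.

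**Figure D1:**
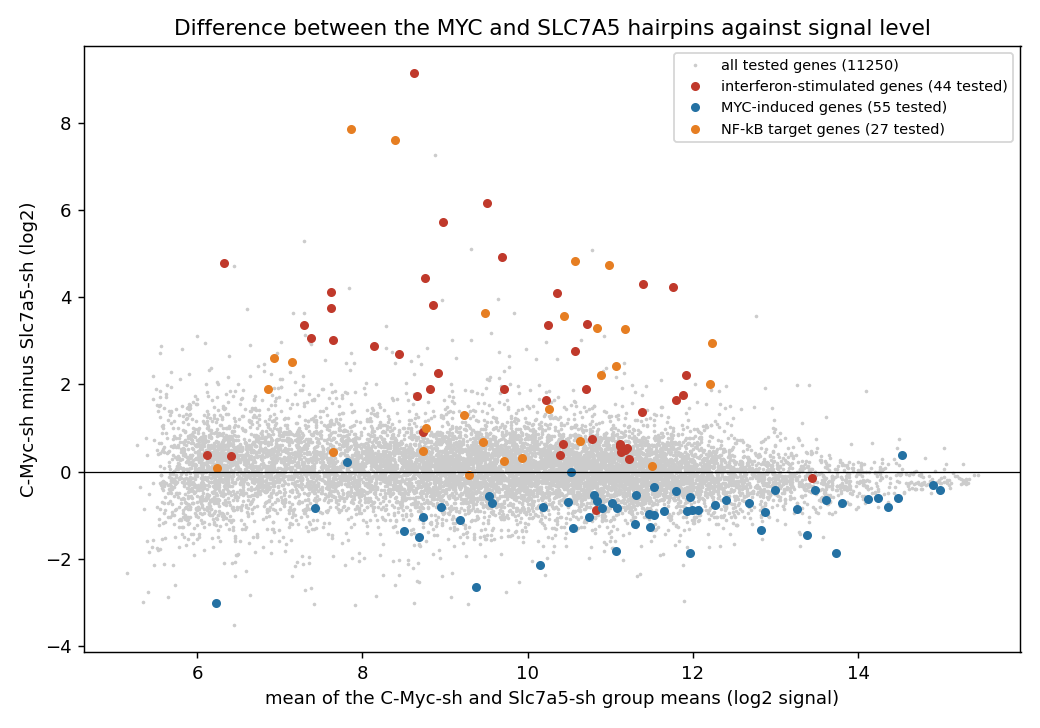
Difference between the MYC and SLC7A5 hairpins (C-Myc-sh minus Slc7a5-sh, log2) against the mean of the 2 group means (log2 signal) for 11250 tested genes, with 3 gene lists coloured. Interferon-stimulated and NF-kB target genes lie mostly above 0, with medians of 2.05 and 2.02, and MYC-induced genes mostly below it, with a median of -0.81.

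Genes of the B-cell lineage were measured in every array, and markers of other lineages mostly were not. CD79A, the signal chain of the B-cell receptor, read 11.28, 11.30 and 11.59 in the C-Myc-sh arrays and 11.00, 11.08 and 11.25 in the Slc7a5-sh arrays, and MS4A1, which encodes the surface protein CD20, averaged 11.92 with the SLC7A5 hairpin and differed by 0.08 (adjusted p = 0.249, limma). The mean signal was below the filter level for 20 of 25 measured T and NK cell markers, 18 of 22 myeloid markers and 19 of 25 epithelial and fibroblast markers. CD3D, CD8A, CD14, LYZ and EPCAM, which define these lineages, were among those below it. Summed on the linear scale, the T and NK markers ranged from 1100 to 1430 with the MYC hairpin, 880 to 1160 with the SLC7A5 hairpin and 1320 to 1550 in the controls. The myeloid markers summed to 909 to 1240, 692 to 852 and 780 to 889, so their groups did not overlap between the hairpins, and the epithelial and fibroblast markers to 1350 to 1630, 1480 to 1610 and 1360 to 1540. One myeloid marker, MS4A7, was called, at 8.01 against 5.78. Of the T and NK markers, LAT, an adaptor of antigen receptor signalling, was called, at 7.37 against 6.39, a call lost under 7 of the alternatives.

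MYC-induced genes had the lowest median of the lists with at least 10 tested members. Of 55 tested members, 52 were lower with the MYC hairpin, 1 was higher and 2 did not pass, with a median difference of -0.81, where 25.1% of all tested genes were lower. SRM, the spermidine synthase, read 10.98, 11.00 and 11.14 in the C-Myc-sh arrays and 12.90, 12.82 and 12.99 in the Slc7a5-sh arrays, far from any overlap, and 13.06, 13.04 and 13.09 in the controls. Its difference was -1.86 (SE 0.06, adjusted p = 1.77e-11, limma). ODC1, which makes the first polyamine from ornithine, read 12.78, 12.78 and 12.83 with the MYC hairpin against 14.62, 14.61 and 14.74 with the SLC7A5 hairpin, or 27.6% of the signal with the SLC7A5 hairpin, with a difference of -1.86 (SE 0.07, adjusted p = 3.13e-11, limma). For both enzymes the controls, at 13.06 and 14.67 on average, were close to the SLC7A5 hairpin. RCC1, the nucleotide exchange factor of the small GTPase Ran, was lower (-2.64), with arrays at 8.36, 7.70 and 8.11 against 10.58, 10.79 and 10.70. TERT, the catalytic subunit of telomerase, read 4.99, 5.13 and 4.03 with the MYC hairpin, below the filter level, and 7.66, 7.95 and 7.60 with the SLC7A5 hairpin. Against the filter level it was 3.9-fold lower. TFRC, the transferrin receptor through which cells take up iron, was the 1 member that was higher (0.37 (SE 0.06, adjusted p = 1.2e-04, limma)).

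Ribosome biogenesis factors showed the same direction throughout the calls. Of this list, 0 of 68 tested members were higher, 56 were lower and 12 did not pass, with a median difference of -0.67. LYAR, a nucleolar protein, read 9.18, 9.07 and 8.99 in the C-Myc-sh arrays and 11.24, 11.24 and 11.21 in the Slc7a5-sh arrays and 11.21, 11.17 and 11.26 in the controls, so the SLC7A5 and control hairpins gave nearly one level and the MYC hairpin a much lower one. The LYAR difference was -2.15 (SE 0.08, adjusted p = 3.28e-11, limma). Other members with large differences were MRTO4 (-1.82), RRS1 (-1.61) and NPM3 (-1.60), all of them assembly factors or chaperones of the nucleolus. The abundant nucleolar proteins NCL and FBL differed by -0.63 and -0.86. The proteins of the finished ribosome differed less: for cytosolic ribosomal proteins, 0 of 53 tested members were higher, 38 were lower and 15 did not pass, with a median difference of -0.23. That median was -0.05 after quantile normalization. Of 78 listed genes, 53 had a usable probe set. The median level of this list was 14.69 to 14.87 with the MYC hairpin and 14.93 to 15.08 with the SLC7A5 hairpin. For ribosome biogenesis it was 10.51 to 10.73 and 11.24 to 11.37, and the effect of signal level on the size of a difference was not tested. For mitochondrial ribosomal proteins, 3 of 75 tested members were higher, 50 were lower and 22 did not pass, with a median difference of -0.34, with MRPS34 (-1.08) and MRPS2 (-1.06) lowest.

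The polymerases that make ribosomal and transfer RNA were split by subunit. Of 36 tested genes of RNA polymerase I and III, 16 were lower, 4 higher and 16 did not pass. POLR3G, the subunit of RNA polymerase III found in dividing and stem cells, read 9.29, 9.26 and 9.17 with the MYC hairpin against 11.30, 11.08 and 11.28 with the SLC7A5 hairpin, a difference of -1.98 (SE 0.09, adjusted p = 2.39e-10, limma). POLR3GL, its close relative, differed by 0.20 in the other direction, a call lost with arrays centred on their median (adjusted p = 0.19). POLR1G of RNA polymerase I and GTF3A, the factor for 5S ribosomal RNA, were lower (-1.88 and -1.44). Among translation factors, 1 of 43 tested members was higher, 28 were lower and 14 did not pass, with a median difference of -0.26. The lowest was EIF4EBP1, the mTORC1 substrate that holds the cap-binding protein eIF4E inactive, at 8.69, 9.05 and 9.30 with the MYC hairpin against 11.27, 11.41 and 11.51 with the SLC7A5 hairpin (-2.38 (SE 0.13, adjusted p = 2.08e-09, limma)).

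Nucleotide synthesis had the next lowest median. Of this list, 4 of 37 tested members were higher, 28 were lower and 5 did not pass, with a median difference of -0.76. IMPDH2, the rate-limiting enzyme of guanine nucleotide synthesis, read 10.80, 10.71 and 10.57 in the C-Myc-sh arrays and 12.41, 12.20 and 12.25 in the Slc7a5-sh arrays, without overlap (-1.60 (SE 0.08, adjusted p = 6.56e-10, limma)). NME1, a nucleoside diphosphate kinase, differed by -1.46 and PFAS, an enzyme of purine synthesis, by -1.38. The 1 member at least 2-fold higher was CMPK2 (2.87), a mitochondrial nucleotide kinase that is also interferon-induced. SAMHD1, which degrades deoxynucleotides, was higher by 0.59. In polyamine metabolism, 1 of 15 tested members was higher, 7 were lower and 7 did not pass, with a median difference of -0.25, and outside SRM and ODC1 no member reached a difference of 1. The polyamine median was -0.44 without possibly cross-binding probe sets or with the 75th percentile filter and -0.43 without Slc7a5-sh replicate 1. SAT1, which marks polyamines for breakdown and export, was higher by 0.54.

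Cell cycle genes were lower with the MYC hairpin in almost every case. For DNA replication, 1 of 53 tested members was higher, 47 were lower and 5 did not pass, with a median difference of -0.62. For mitosis, 1 of 55 tested members was higher, 53 were lower and 1 did not pass, with a median difference of -0.62. MCM10, which helps to activate the replication helicase, read 9.15, 9.15 and 9.47 in the C-Myc-sh arrays and 10.67, 10.59 and 10.60 in the Slc7a5-sh arrays, with 11.03, 11.04 and 11.13 in the controls (-1.37 (SE 0.10, adjusted p = 2.39e-08, limma)). MKI67, the proliferation antigen Ki-67, read 10.13, 10.17 and 10.19 with the MYC hairpin against 11.47, 11.29 and 11.69 with the SLC7A5 hairpin (-1.32 (SE 0.09, adjusted p = 2.04e-08, limma)). The arrays did not overlap for either gene, and the SLC7A5 hairpin stayed within 0.5 log2 units of the control mean for both. FOXM1, the transcription factor of mitotic genes, differed by -1.30, BIRC5, the inhibitor of apoptosis survivin, by -1.28 and CDC6, which licenses replication origins, by -1.35. GINS3 (0.46) and ANLN (0.19) were the 2 members called higher. The ANLN call was lost under 10 of the alternatives, and without possibly cross-binding probe sets its difference was -0.13.

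Regulators of entry into the cycle differed in both directions, more of them lower than higher. CDKN1B, the CDK inhibitor p27, read 11.17, 10.95 and 11.06 in the C-Myc-sh arrays and 10.10, 10.12 and 9.89 in the Slc7a5-sh arrays and 9.15, 8.98 and 9.07 in the controls, so the 3 groups were in order MYC hairpin, SLC7A5 hairpin, control without overlap (1.02 (SE 0.10, adjusted p = 7.09e-07, limma)). RB1 and RBL2, pocket proteins that hold E2F factors inactive, were higher by 1.12 and 0.97, and CDK6, a kinase that drives entry into the cycle, by 0.40, a call lost when its probe sets were averaged (0.14, adjusted p = 0.603, limma). CDC25A, the phosphatase that activates CDK2, was lower (-1.55) and E2F2 (-1.06). CDKN1A, the inhibitor p21, had overlapping arrays, 10.41, 10.83 and 10.57 against 10.60, 10.54 and 10.97, and did not pass (adjusted p = 0.562, limma, 95% interval -0.38 to 0.18). Over G1 regulators, 4 of 27 tested members were higher, 15 were lower and 8 did not pass, with a median difference of -0.48. That median was -0.21 without possibly cross-binding probe sets and -0.23 with no filter. Over MYC-repressed genes, 9 of 15 tested members were higher, 2 were lower and 4 did not pass, with a median difference of 0.66, with GADD45B (2.22), a stress-induced growth arrest gene, and TSC22D3 (1.48) highest. TSC22D3, which encodes the leucine zipper protein GILZ, read 12.35 with the MYC hairpin, 10.88 with the SLC7A5 hairpin and 9.41 in the controls. Over FOXO and quiescence genes, 14 of 25 tested members were higher, 5 were lower and 6 did not pass, with a median difference of 0.51.

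**Figure D2:**
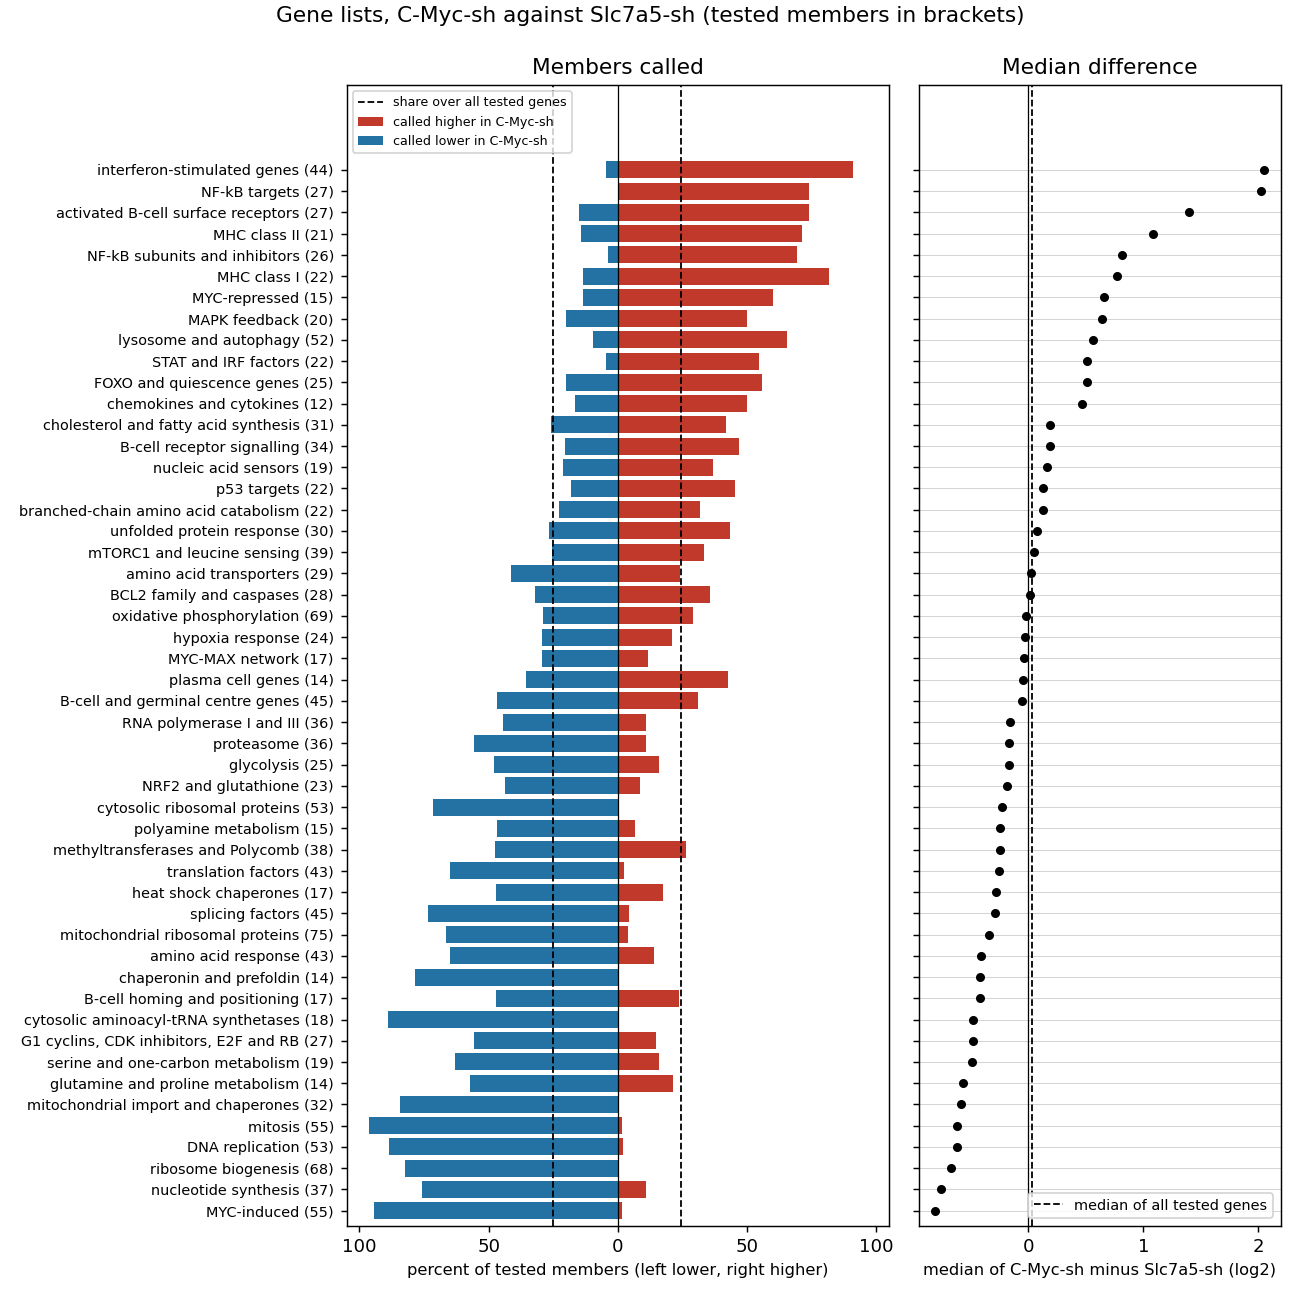
Left, percent of the members of each gene list with at least 10 tested (number in brackets) called lower (to the left) or higher (to the right) with the MYC hairpin at an adjusted p under 0.05 by limma, with dashed lines at the shares over all tested genes, 25.1% and 24.4%. Right, the median difference of each list (C-Myc-sh minus Slc7a5-sh, log2), from -0.81 for MYC-induced genes to 2.05 for interferon-stimulated genes, with a dashed line at 0.03 for all tested genes.

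Amino acid supply separated the hairpins gene by gene. Over the amino acid response, 6 of 43 tested members were higher, 28 were lower and 9 did not pass, with a median difference of -0.41; the median was -0.26 after quantile normalization. ASNS, the asparagine synthetase whose promoter holds the CARE word, read 12.94, 13.03 and 13.12 in the C-Myc-sh arrays and 13.93, 13.89 and 14.06 in the Slc7a5-sh arrays and 13.31, 13.37 and 13.33 in the controls. The control arrays thus lay between the knockdowns, and the difference was -0.93 (SE 0.06, adjusted p = 1.03e-08, limma). The more specific probe set of ASNS gave -1.36 and did not pass (adjusted p = 0.0943, limma). PHGDH, which starts serine synthesis, read 11.62, 11.68 and 11.66 with the MYC hairpin against 12.60, 12.63 and 13.00 with the SLC7A5 hairpin, again with the controls in between at 12.23, 12.28 and 12.20 (-1.09 (SE 0.09, adjusted p = 8.53e-08, limma)). PSAT1, the next enzyme of that path, averaged 13.01, 13.76 and 13.17 with the MYC, SLC7A5 and control hairpins. STC2, a secreted glycoprotein induced by ATF4, averaged 8.58, 9.96 and 8.96. For these 4 genes the SLC7A5 hairpin had the highest mean.

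Another set of response genes was higher with the MYC hairpin than with the SLC7A5 hairpin. DDIT3, the stress factor CHOP, read 11.10, 10.94 and 11.24 in the C-Myc-sh arrays and 10.01, 9.91 and 9.76 in the Slc7a5-sh arrays (1.20 (SE 0.10, adjusted p = 1.42e-07, limma)), against 9.50, 9.40 and 9.41 in the controls. SESN2, a leucine sensor that restrains mTORC1, read 10.06, 10.36 and 10.13 against 9.77, 9.31 and 9.41 (0.69 (SE 0.15, adjusted p = 0.00115, limma)), with controls at 8.81, 9.05 and 8.62. SLC38A2, a sodium-coupled importer of small neutral amino acids, read 13.40, 13.43 and 13.45 with the MYC hairpin against 12.91, 12.91 and 12.84 with the SLC7A5 hairpin (0.54 (SE 0.05, adjusted p = 6.37e-07, limma)), with controls at 12.13, 12.19 and 12.25. In each of these 3 genes all 6 knockdown arrays lay above all 3 control arrays, and the MYC hairpin had the higher level. SLC7A11, the cystine importer, had non-overlapping arrays at 11.01, 11.31 and 11.06 against 10.81, 10.84 and 10.91, but the difference of 0.27 did not pass (adjusted p = 0.0546, limma), with controls at 8.67, 9.03 and 9.01. ATF4, the factor known to drive both sets, was lower with the MYC hairpin (-0.32) (adjusted p = 2.7e-04, limma), at 14.07 against 14.39 and 13.96 in the controls. After quantile normalization the ATF4 difference was -0.12 and did not pass (adjusted p = 0.0559, limma). Array signals do not show ATF4 protein, which is set largely by translation.

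Amino acid transporters were split. Of 29 tested members, 12 were lower, 7 higher and 10 did not pass, and the median of 0.02 changed sign under 8 of the alternatives. SLC1A5, a glutamine importer, read 9.08, 8.94 and 10.00 in the C-Myc-sh arrays and 10.54, 11.14 and 11.08 in the Slc7a5-sh arrays (-1.58 (SE 0.22, adjusted p = 2.9e-05, limma)), with controls at 10.53, 10.25 and 10.40. The spread among the C-Myc-sh arrays was wide, yet none reached the SLC7A5 hairpin. SLC38A5, SLC1A3 and SLC7A3, carriers of glutamine, glutamate and cationic amino acids, were lower (-2.03, -1.99 and -1.97). SLC7A1, another cationic amino acid carrier, was lower (-0.71) and SLC43A1, a further carrier of large neutral amino acids (LAT3), (-1.04). SLC7A7, a light chain that also pairs with SLC3A2, was higher by 0.98, and SLC38A10 by 0.86.

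Enzymes that charge, make or use amino acids were mostly lower. Over cytosolic aminoacyl-tRNA synthetases, 0 of 18 tested members were higher, 16 were lower and 2 did not pass, with a median difference of -0.48. Without possibly cross-binding probe sets this median was -0.27. VARS1, which charges valine, had the largest difference (-1.13), whereas WARS1, which charges tryptophan and is interferon-induced, did not pass (0.10). Over serine and one-carbon metabolism, 3 of 19 tested members were higher, 12 were lower and 4 did not pass, with a median difference of -0.49. SLC19A1, the folate carrier, and AHCY, which clears S-adenosylhomocysteine, were lower (-1.49 and -1.15). Over glutamine and proline metabolism, 3 of 14 tested members were higher, 8 were lower and 3 did not pass, with a median difference of -0.57. Without possibly cross-binding probe sets that median was -0.09. PYCR1, the last enzyme of proline synthesis, read 8.73, 8.74 and 8.86 in the C-Myc-sh arrays and 10.28, 10.49 and 10.24 in the Slc7a5-sh arrays (-1.56 (SE 0.10, adjusted p = 1.11e-08, limma)), with controls at 10.28, 10.41 and 10.44. ASS1, argininosuccinate synthase of the arginine and urea path, had the largest lower difference of all genes above the filter level in both groups, at 5.33, 7.02 and 6.79 with the MYC hairpin against 9.44, 9.46 and 9.42 with the SLC7A5 hairpin and 7.72, 7.62 and 8.09 in the controls. The 3 groups of ASS1 did not overlap, with the control between the knockdowns (-3.06 (SE 0.34, adjusted p = 3.36e-06, limma)).

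Branched-chain amino acids, the cargo of SLC7A5, are broken down by a path whose first enzyme was lower with the MYC hairpin. Later enzymes differed in both directions. BCAT1, the cytosolic transaminase of leucine, isoleucine and valine and a known MYC target, read 13.21, 13.20 and 13.17 in the C-Myc-sh arrays and 14.19, 14.20 and 14.12 in the Slc7a5-sh arrays (-0.97 (SE 0.05, adjusted p = 4.71e-10, limma)), with 14.23, 14.26 and 14.25 in the controls. DBT and BCKDHB, subunits of the dehydrogenase complex of the next step, were higher by 0.63 and 0.43, and ALDH6A1 and ACADSB, further along the path, by 0.92 and 0.77. Without possibly cross-binding probe sets neither passed, DBT at 0.24 (adjusted p = 0.291, limma) and BCKDHB at -0.02 (adjusted p = 0.965, limma), and BCKDHB was also lost when its probe sets were averaged (0.21, adjusted p = 0.275, limma). Of the later enzymes, ACAT1, HSD17B10 and IVD were lower (-0.95, -0.38 and -0.38). Over the path, 7 of 22 tested members were higher, 5 were lower and 10 did not pass, with a median difference of 0.13. Over mTORC1 and leucine sensing, 13 of 39 tested members were higher, 10 were lower and 16 did not pass, with a median difference of 0.05, with the median changing sign under 5 alternatives. DEPTOR, an inhibitor bound to mTOR, read 10.09, 10.21 and 10.14 with the MYC hairpin against 12.15, 12.19 and 12.13 with the SLC7A5 hairpin (-2.02 (SE 0.06, adjusted p = 5.69e-12, limma)). The sensors and Rag GTPases differed among themselves: RRAGD and RRAGB were higher by 0.93 and 0.99, RRAGA lower (-0.67) and SESN1 lower (-0.97). The RRAGB call was lost without C-Myc-sh replicate 3 (adjusted p = 0.0582, limma).

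**Figure D3:**
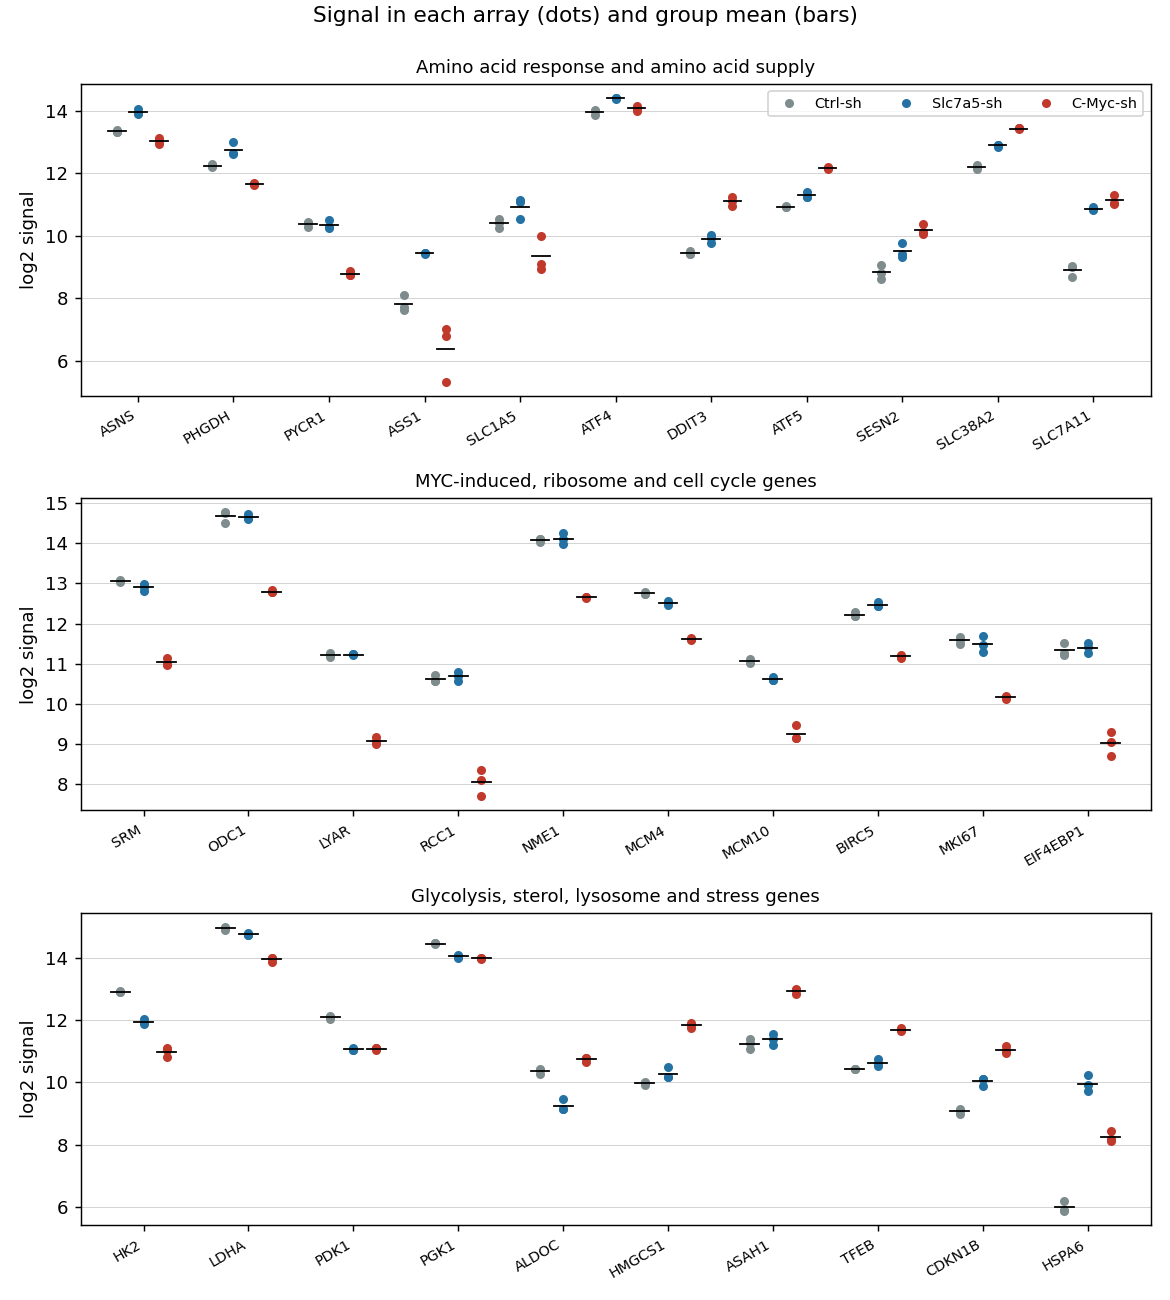
Log2 signal of each of the 9 arrays (dots) and the mean of each group (bars) for genes of the amino acid response and supply (top), MYC-induced, ribosome and cell cycle genes (middle), and glycolysis, sterol, lysosome and stress genes (bottom), in the order control, SLC7A5 and MYC hairpin. ASNS averaged 13.34, 13.96 and 13.03 and DDIT3 9.43, 9.89 and 11.10, while in the middle row the MYC hairpin is lowest for all 10 genes.

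Glycolysis genes differed in both directions. Of the list, 4 of 25 tested members were higher, 12 were lower and 9 did not pass, with a median difference of -0.17. HK2, a hexokinase of the first step, read 10.82, 11.10 and 11.04 in the C-Myc-sh arrays and 12.04, 11.95 and 11.87 in the Slc7a5-sh arrays and 12.92, 12.90 and 12.95 in the controls, so that each group stood apart (-0.97 (SE 0.07, adjusted p = 5.65e-08, limma)). Another hexokinase of the list went the other way, at 10.40 with the MYC hairpin against 9.84 with the SLC7A5 hairpin (0.56, adjusted p = 6.52e-04, limma). LDHA, which converts pyruvate to lactate and whose promoter holds a pair of E-boxes, read 13.87, 14.00 and 14.01 with the MYC hairpin against 14.76, 14.74 and 14.80 with the SLC7A5 hairpin (-0.81 (SE 0.05, adjusted p = 1.12e-08, limma)), with a control mean of 14.96. PGK1 and PDK1, an enzyme of the lower path and a kinase that closes pyruvate dehydrogenase, had overlapping arrays, and neither difference passed (-0.05, 95% interval -0.15 to 0.05, and 0.02, -0.11 to 0.15). After quantile normalization PGK1 was higher with the MYC hairpin (0.15, adjusted p = 0.00526, limma). Both knockdowns lay below the controls for PGK1 and PDK1, whose control means were 14.47 and 12.09. ALDOC, the brain-type aldolase, was higher with the MYC hairpin, at 10.78, 10.79 and 10.65 against 9.14, 9.14 and 9.46 (2.82-fold, SE 0.10 on the log2 scale, adjusted p = 2.16e-08, limma), while the controls stood near the MYC hairpin at 10.43, 10.40 and 10.27. SLC2A3, the glucose carrier GLUT3, read 8.37, 8.26 and 8.07 with the MYC hairpin and had a mean below the filter level with the SLC7A5 hairpin, so it was 5.51-fold higher against that level.

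Mitochondrial genes were not of one kind. Over oxidative phosphorylation, 20 of 69 tested members were higher, 20 were lower and 29 did not pass, with a median difference of -0.02. Over mitochondrial import and chaperones, 0 of 32 tested members were higher, 27 were lower and 5 did not pass, with a median difference of -0.59. TRAP1, the mitochondrial HSP90, read 10.10, 9.99 and 9.96 in the C-Myc-sh arrays and 11.71, 11.77 and 12.05 in the Slc7a5-sh arrays (-1.83 (SE 0.09, adjusted p = 4.06e-10, limma)), and C1QBP, a matrix protein needed for mitochondrial translation, was lower (-1.14). SDHD, a membrane anchor of complex II, was the subunit with the largest called rise (0.71). NDUFB10 of complex I had the largest called fall (-0.74). Over NRF2 and glutathione genes, 2 of 23 tested members were higher, 10 were lower and 11 did not pass, with a median difference of -0.19, with TKT, the transketolase of the pentose phosphate path, lower (-1.73) and MGST1, a membrane glutathione transferase, (-1.69).

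Genes of sterol synthesis and of the lysosome were more often higher than lower with the MYC hairpin. HMGCS1, which condenses acetyl units for cholesterol, read 11.86, 11.91 and 11.76 in the C-Myc-sh arrays and 10.19, 10.50 and 10.16 in the Slc7a5-sh arrays (1.56 (SE 0.09, adjusted p = 4.18e-09, limma)), with controls at 9.97, 10.01 and 9.92. MSMO1, LSS and INSIG1, further genes under control of SREBP2, were higher by 1.45, 1.32 and 1.26. ACACA, which commits acetyl-CoA to fatty acids, was lower (-0.64), SREBF1, its regulator, (-0.82) and PMVK, an enzyme of sterol synthesis, (-0.71). ACLY, which supplies acetyl-CoA to both paths, was higher by 0.35. The SREBF1 call was lost without Slc7a5-sh replicate 1 or 2 or C-Myc-sh replicate 2 (adjusted p = 0.0622, 0.0788 and 0.0845, limma). Over the whole list, 13 of 31 tested members were higher, 8 were lower and 10 did not pass, with a median difference of 0.19. It was 0.35 with probe sets averaged, 0.31 with the 75th percentile filter and 0.30 without Slc7a5-sh replicate 1. ABCG1, the cholesterol exporter, averaged 6.73, 7.53 and 9.50 with the MYC, SLC7A5 and control hairpins, so both knockdowns lay far below the control. Over lysosome and autophagy, 34 of 52 tested members were higher, 5 were lower and 13 did not pass, with a median difference of 0.56. ASAH1, the acid ceramidase, read 13.00, 12.86 and 12.97 with the MYC hairpin against 11.41, 11.56 and 11.19 with the SLC7A5 hairpin (1.55 (SE 0.10, adjusted p = 6.29e-09, limma)). TFEB, the transcription factor of lysosome genes, was higher by 1.06, TPP1, a lysosomal peptidase, by 1.20 and the membrane protein LAMP1 by 0.60. CTSC, the cathepsin that activates granule proteases, was lower (-0.79).

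Most interferon-stimulated genes were higher with the MYC hairpin, IFI44L with the largest difference of all tested genes. Of 56 listed genes 44 were tested, and 40 of these were higher, 2 were lower and 2 did not pass, with a median difference of 2.05, where 24.4% of all tested genes were higher. With no filter, over all 56 listed genes, the median was 1.90. IFI44L itself reached the filter level only through its C-Myc-sh arrays. IFI44L read 13.13, 13.18 and 13.26 in the C-Myc-sh arrays and 4.23, 3.16 and 4.80 in the Slc7a5-sh arrays. The Slc7a5-sh arrays were all below the filter level, as were the controls at 1.53, 3.33 and 3.74, and against that level IFI44L was 172-fold higher with the MYC hairpin (fitted difference 9.13 (SE 0.54, adjusted p = 4.53e-09, limma)). IFIT1, an RNA-binding antiviral protein, read 12.52, 12.60 and 12.65 with the MYC hairpin against 6.75, 5.82 and 6.74 with the SLC7A5 hairpin (6.16 (SE 0.52, adjusted p = 1.88e-07, limma)), with controls at 3.75, 6.42 and 6.41. ISG15, a ubiquitin-like modifier, read 13.72, 13.95 and 13.94 against 9.99, 9.46 and 9.49, 18.7-fold higher (4.23 (SE 0.12, adjusted p = 4.22e-12, limma)). The arrays of the hairpins did not overlap for any of these 3 genes.

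The same direction held for antiviral effectors with other modes of action. MX1, a dynamin-like GTPase that traps viral capsids, was higher by 4.93 (SE 0.30, adjusted p = 6.31e-09, limma), at 12.13, 12.20 and 12.13 against 7.38, 7.35 and 6.94 and 5.38, 6.81 and 6.87 in the controls. OAS1, which activates RNase L, was higher by 1.90, USP18, the protease that removes ISG15, by 3.07 and EPSTI1 by 4.44. BST2, which tethers budding virus, was well above the filter level with both hairpins (11.44 and 10.80) and differed by 0.64. ISG20, an exonuclease, was lower (-0.87) and IFI16, a DNA sensor, (-0.15). The IFI16 difference became 0.04 after quantile normalization. Since the arrays cannot show secreted interferon, only the transcripts of its response are described.

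Factors that drive the interferon response were higher in part. Over STAT and IRF factors, 12 of 22 tested members were higher, 1 was lower and 9 did not pass, with a median difference of 0.51. It was 0.30 with the 75th percentile filter. IRF9, the DNA-binding part of the complex that binds the ISRE, read 11.70, 11.70 and 11.74 in the C-Myc-sh arrays and 8.92, 8.38 and 8.88 in the Slc7a5-sh arrays (2.98 (SE 0.34, adjusted p = 4e-06, limma)), with controls at 8.29, 6.85 and 8.83. IRF7, which amplifies type I interferon, read 9.38, 9.65 and 10.14 with the MYC hairpin against 7.28, 7.10 and 6.58 with the SLC7A5 hairpin (2.74 (SE 0.30, adjusted p = 2.58e-06, limma)). IRF4, a factor of activated B and plasma cells, was higher by 1.76, TYK2, the kinase of the interferon receptor, by 1.87 and SOCS1, a feedback inhibitor, by 1.72. IRF3 (-0.13), IRF8 (-0.06) and the receptor chain IFNAR1 (-0.10) did not pass. Over nucleic acid sensors, 7 of 19 tested members were higher, 4 were lower and 8 did not pass, with a median difference of 0.16. The median of the sensors ranged from 0.04 after quantile normalization to 0.31 with the 75th percentile filter, with 0.29 without C-Myc-sh replicate 1. IFIH1, the RNA sensor MDA5, was higher by 3.39 and RIGI by 1.16, and AIM2, a DNA sensor, was lower (-0.91).

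**Figure D4:**
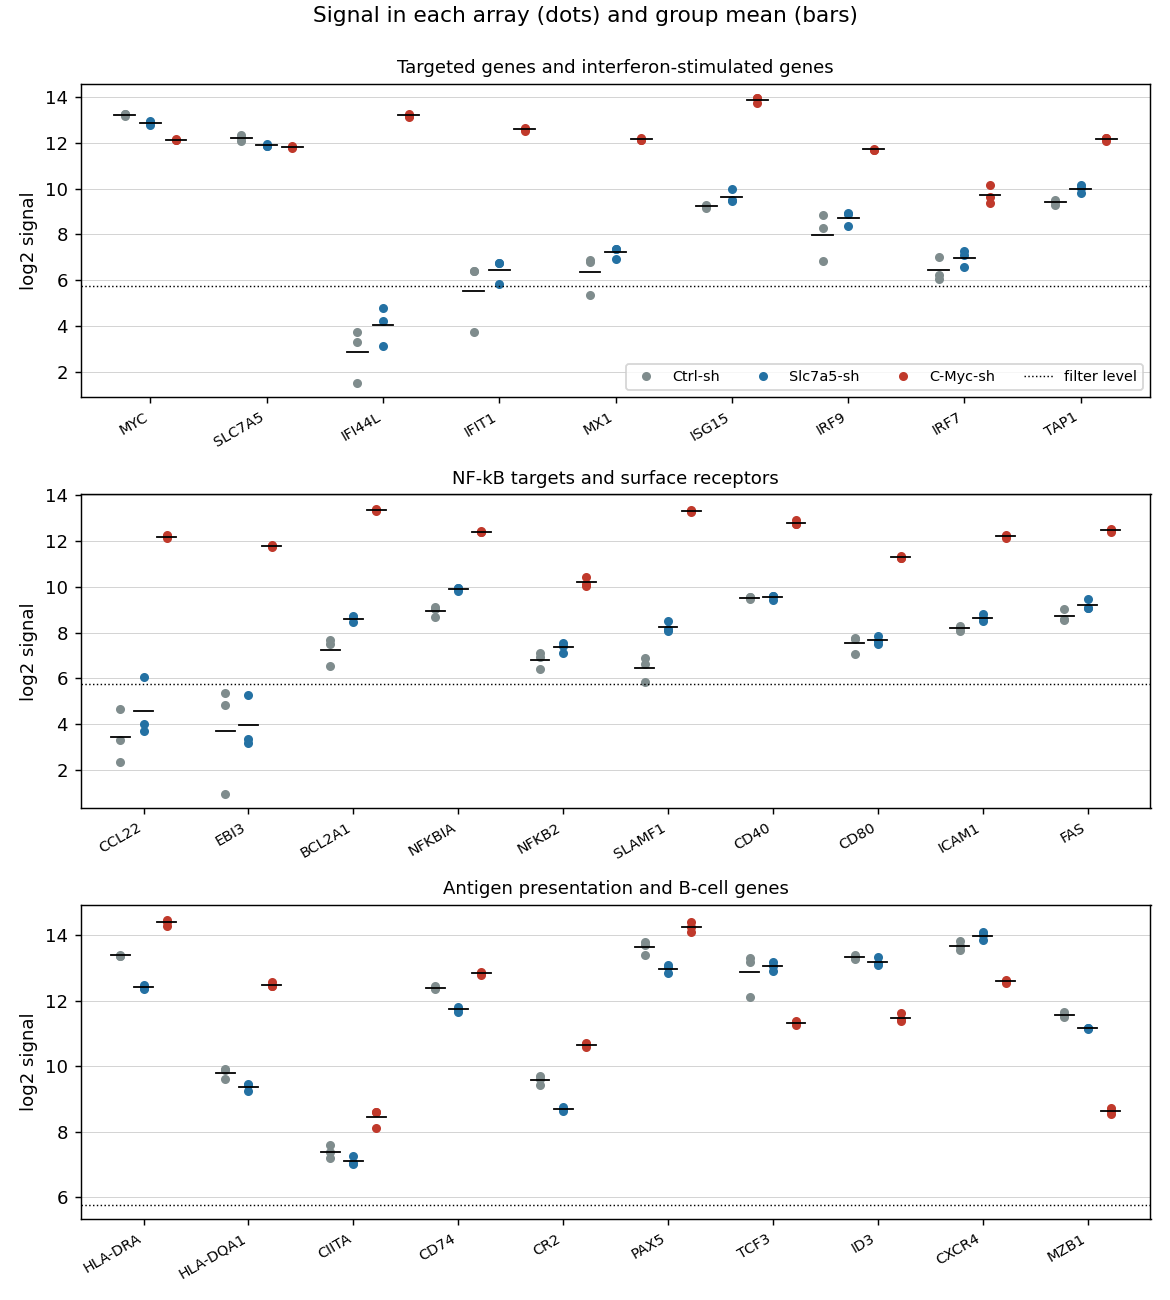
Log2 signal of each of the 9 arrays (dots) and the mean of each group (bars) for the targeted and interferon-stimulated genes (top), NF-kB targets and surface receptors (middle), and antigen-presentation and B-cell genes (bottom), in the order control, SLC7A5 and MYC hairpin, with the filter level of 5.77 dotted. In the middle row the MYC hairpin is above the other groups for all 10 genes, while HLA-DRA averaged 13.39, 12.42 and 14.40 in the order drawn.

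NF-kB, a family of dimeric factors held inactive by inhibitors of the IkB family, had higher targets, subunits and inhibitors. Over NF-kB targets, 20 of 27 tested members were higher, 0 were lower and 7 did not pass, with a median difference of 2.02. With no filter, over all 36 members with a usable probe set, the median was 1.78. Some tested members, among them CCL22 and EBI3, reached the filter level only through their C-Myc-sh arrays. Over subunits and inhibitors, 18 of 26 tested members were higher, 1 was lower and 7 did not pass, with a median difference of 0.81. CCL22, a chemokine for T cells, read 12.22, 12.26 and 12.13 in the C-Myc-sh arrays and between 3.71 and 6.06 in the Slc7a5-sh arrays, and the controls read 3.31, 2.35 and 4.67. With the SLC7A5 hairpin the mean was below the filter level, and against that level CCL22 was 86.3-fold higher. EBI3, a chain of the cytokines IL-27 and IL-35, read 11.82, 11.75 and 11.78 with the MYC hairpin against 3.35, 3.19 and 5.27 with the SLC7A5 hairpin, 64.6-fold higher against the filter level. BCL2A1, a survival protein of the BCL2 family, read 13.30, 13.42 and 13.35 against 8.73, 8.67 and 8.45 (4.74 (SE 0.21, adjusted p = 2.4e-10, limma)), with controls at 6.56, 7.66 and 7.51. For BCL2A1 the SLC7A5 hairpin also stood above the controls, but far below the MYC hairpin.

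Genes of both arms of NF-kB and of their brakes were higher. NFKB2, the p100 precursor of the alternative arm, read 10.05, 10.11 and 10.43 in the C-Myc-sh arrays and 7.41, 7.12 and 7.54 in the Slc7a5-sh arrays (2.84 (SE 0.22, adjusted p = 7.25e-08, limma)). NFKBIA, the inhibitor IkB-alpha, whose promoter holds the kB word, read 12.40, 12.40 and 12.43 with the MYC hairpin against 9.94, 9.84 and 9.97 with the SLC7A5 hairpin (2.49 (SE 0.10, adjusted p = 1.22e-10, limma)), with controls at 8.69, 9.02 and 9.12. TNFAIP3, the ubiquitin-editing brake A20, was higher by 2.58, TRAF1 by 2.51 and CYLD, a deubiquitinase that limits the pathway, by 1.65. The DNA-binding subunits RELB, RELA and REL differed by less, 0.88, 0.74 and 0.29. TRAF3, which directs the kinase of the alternative arm to degradation, was the 1 member that was lower (-0.52). SOD2, an antioxidant enzyme often read as an NF-kB target, did not pass (-0.08).

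Receptors of activated B cells were higher as a group, with exceptions. Of this list, 20 of 27 tested members were higher, 4 were lower and 3 did not pass, with a median difference of 1.40. With no filter, over all 35 members with a usable probe set, the median was 1.01. SLAMF1, a self-binding adhesion receptor, read 13.27, 13.30 and 13.38 in the C-Myc-sh arrays and 8.06, 8.14 and 8.50 in the Slc7a5-sh arrays (5.08 (SE 0.21, adjusted p = 1.28e-10, limma)), with controls at 6.90, 6.62 and 5.83. CD40, through which T cells activate B cells, read 12.75, 12.77 and 12.91 with the MYC hairpin against 9.61, 9.61 and 9.43 with the SLC7A5 hairpin (3.26 (SE 0.08, adjusted p = 1.17e-12, limma)), and here the controls, at 9.55, 9.54 and 9.49, overlapped the SLC7A5 hairpin. CD80, the ligand of CD28, was higher by 3.63, CD83 by 2.94, the adhesion molecule ICAM1 by 3.57 and the death receptor FAS by 3.29. CD70, the ligand of CD27, was already measured clearly with the SLC7A5 hairpin and differed by 0.94. TNFRSF17, the plasma cell receptor BCMA, was lower (-2.10), and ITGA4, an integrin of lymphocyte homing, (-0.83). Over chemokines and cytokines, 6 of 12 tested members were higher, 2 were lower and 4 did not pass, with a median difference of 0.47. This median was 1.95 without possibly cross-binding probe sets, 0.25 with no filter and -0.01 with the 75th percentile filter. CCL17 (3.64) and CCL4 (2.02) were among the 6 that were higher, and MIF (-0.81) and VEGFA (-0.89) were lower. The summed myeloid markers were also higher with the MYC hairpin, as given above, while CD14, LYZ and CSF1R were below the filter level in the mean of all arrays, and their part in these differences was not tested.

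In antigen presentation to helper T cells, the hairpins lay on opposite sides of the control for several genes. Over MHC class II, 15 of 21 tested members were higher, 3 were lower and 3 did not pass, with a median difference of 1.08. HLA-DRA, the alpha chain of HLA-DR, read 14.28, 14.42 and 14.48 in the C-Myc-sh arrays and 12.37, 12.40 and 12.47 in the Slc7a5-sh arrays, with 13.41, 13.38 and 13.38 in the controls (1.98 (SE 0.06, adjusted p = 4.35e-12, limma)). The 3 groups did not overlap, and the control fell between them. HLA-DQA1, whose promoter holds the CCAAT word, read 12.46, 12.56 and 12.44 with the MYC hairpin against 9.46, 9.25 and 9.42 with the SLC7A5 hairpin (3.11 (SE 0.09, adjusted p = 5.99e-12, limma)), with controls at 9.91, 9.62 and 9.87. HLA-DPB1 averaged 12.21, 10.39 and 11.10 with the MYC, SLC7A5 and control hairpins, and CD74, the chaperone that guides class II chains, 12.84, 11.74 and 12.40. CIITA, the coactivator on which class II transcription depends, read 8.10, 8.60 and 8.61 against 7.01, 7.26 and 7.04 (1.34 (SE 0.23, adjusted p = 2.27e-04, limma)). The DNA-binding factors that recruit CIITA were not higher: RFX5 did not pass (-0.05), and RFXAP (-0.46) and NFYB (-0.51) were lower. Probe sets of one HLA gene can bind transcripts of a related one, so single HLA genes are uncertain.

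MHC class I, which presents peptides to cytotoxic T cells, was higher as well. Of this list, 18 of 22 tested members were higher, 3 were lower and 1 did not pass, with a median difference of 0.77. TAP1, the peptide transporter whose promoter holds the ISRE word, read 12.07, 12.20 and 12.20 in the C-Myc-sh arrays and 9.80, 10.15 and 10.02 in the Slc7a5-sh arrays (2.17 (SE 0.10, adjusted p = 2.81e-10, limma)), with controls at 9.30, 9.40 and 9.51. HLA-E, a ligand of NK cell receptors, was higher by 2.10 and TAPBP, the loading factor tapasin, by 1.42. B2M, the common light chain, differed by 0.18 at a signal of 15.15 against 14.97, although Daudi cells are known to make no beta-2-microglobulin protein, so surface class I cannot be read from these transcripts. CD1D, which presents lipids, was lower (-0.91). In the proteasome list, 4 of 36 tested members were higher, 20 were lower and 12 did not pass, with a median difference of -0.17, with the assembly chaperone PSMG1 lowest (-1.21). The proteasome median was -0.04 after quantile normalization.

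B-cell identity genes moved in both directions. Over B-cell and germinal centre genes, 14 of 45 tested members were higher, 21 were lower and 10 did not pass, with a median difference of -0.06. TCF3, the E2A factor, read 11.37, 11.36 and 11.27 in the C-Myc-sh arrays and 13.05, 13.18 and 12.92 in the Slc7a5-sh arrays (-1.72 (SE 0.21, adjusted p = 7.78e-06, limma)), and ID3, its inhibitor and target, 11.38, 11.43 and 11.62 with the MYC hairpin against 13.10, 13.14 and 13.32 with the SLC7A5 hairpin (-1.71 (SE 0.07, adjusted p = 1.78e-10, limma)). Without possibly cross-binding probe sets, TCF3 gave -0.09 and did not pass (adjusted p = 0.808, limma). SERPINA9, a serpin of germinal centre B cells, was higher by 1.59. TCL1A, an AKT coactivator of germinal centre B cells, was lower (-1.49), BCL6, the germinal centre repressor, (-0.80) and CXCR4, the chemokine receptor of the dark zone, (-1.39). CR2, the complement receptor CD21, read 10.59, 10.71 and 10.67 against 8.63, 8.74 and 8.70 (1.97 (SE 0.10, adjusted p = 1.52e-09, limma)), with controls between at 9.71, 9.42 and 9.62. PAX5, the factor that maintains B-cell identity, was higher by 1.26, and its controls also lay between the knockdowns at 13.79, 13.39 and 13.70. GPR183, a receptor that moves activated B cells out of the follicle centre, read 9.11, 8.98 and 8.84 with the MYC hairpin and was 9.23-fold higher against the filter level. RAG1, a subunit of the recombinase of antigen receptor genes, read 7.74, 7.82 and 7.63 with the SLC7A5 hairpin, 5.42, 2.76 and 6.11 with the MYC hairpin and 4.97, 3.91 and 5.58 in the controls. The higher level of RAG1 thus belonged to the SLC7A5 hairpin, in the fit a difference of -2.96 (SE 0.77, adjusted p = 0.00502, limma). The other subunit averaged 5.54, 7.44 and 7.97 with the MYC, SLC7A5 and control hairpins (-1.90, adjusted p = 2.68e-04, limma), so its SLC7A5 mean was not above the control mean.

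Signalling and late B-cell genes were likewise split. Over B-cell receptor signalling, 16 of 34 tested members were higher, 7 were lower and 11 did not pass, with a median difference of 0.19. PIK3CD, the lymphocyte PI3 kinase, read 13.28, 13.51 and 13.39 in the C-Myc-sh arrays and 11.50, 11.30 and 11.47 in the Slc7a5-sh arrays (1.97 (SE 0.08, adjusted p = 7.06e-11, limma)), PTPN6, the phosphatase SHP-1, was higher by 1.65, and LCK, a SRC-family kinase, and BTK were lower (-2.04 and -0.93). Over plasma cell genes, 6 of 14 tested members were higher, 5 were lower and 3 did not pass, with a median difference of -0.05. With probe sets averaged it was -0.28. MZB1, a chaperone of IgM assembly, read 8.72, 8.62 and 8.54 with the MYC hairpin against 11.18, 11.15 and 11.18 with the SLC7A5 hairpin (-2.54 (SE 0.08, adjusted p = 9.16e-12, limma)), and JCHAIN, the joining chain of IgM, was lower (-0.71), while PIM2, a survival kinase, was higher by 1.49. XBP1, the secretory regulator, had overlapping arrays and did not pass (-0.08, 95% interval -0.25 to 0.10). Over homing and positioning, 4 of 17 tested members were higher, 8 were lower and 5 did not pass, with a median difference of -0.42. The homing median was -0.64 without Slc7a5-sh replicate 1, -0.27 without Slc7a5-sh replicate 3, -0.26 with probe sets averaged, -0.63 with the 75th percentile filter and -0.16 with no filter. RGS13, which damps chemokine receptors in the germinal centre, was lower (-1.51) and averaged 9.49 with the MYC and 11.00 with the SLC7A5 hairpin, with controls at 11.91, 12.20 and 11.89.

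Death and stress genes did not point one way. Over the BCL2 family and caspases, 10 of 28 tested members were higher, 9 were lower and 9 did not pass, with a median difference of 0.01, and the median changed sign under 7 alternatives. That median reached 0.22 with probe sets averaged and 0.14 without Slc7a5-sh replicate 1. BCL2A1, given above, and CFLAR, the inhibitor of caspase 8 (higher by 1.43), restrain cell death. Among death activators of the BH3-only kind, HRK read 7.78, 7.81 and 7.97 in the C-Myc-sh arrays and 9.80, 9.47 and 9.37 in the Slc7a5-sh arrays (-1.70 (SE 0.15, adjusted p = 2.89e-07, limma)), BIK was lower (-1.28) and BCL2L11, also called BIM, (-0.56). CASP1, the inflammatory caspase, read 12.03, 12.25 and 12.13 against 9.76, 9.79 and 9.74 (2.38 (SE 0.09, adjusted p = 5.54e-11, limma)). Over p53 targets, 10 of 22 tested members were higher, 4 were lower and 8 did not pass, with a median difference of 0.13, with FAS and ZMAT3 (1.55) highest and MDM2, the inhibitor of p53, lower (-0.25), a call lost after quantile normalization (-0.14, adjusted p = 0.127). The p53 target median was 0.38 without possibly cross-binding probe sets and 0.33 with the 75th percentile filter. Daudi is known to carry mutant p53, whose activity was not measured.

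Heat shock and unfolded protein genes separated the hairpins in single members. HSPA6, a stress-induced HSP70, read 8.18, 8.12 and 8.45 in the C-Myc-sh arrays and 9.71, 9.92 and 10.25 in the Slc7a5-sh arrays (-1.71 (SE 0.20, adjusted p = 5.64e-06, limma)), with 5.87, 5.89 and 6.18 in the controls. Both knockdowns therefore stood above the control, and the SLC7A5 hairpin stood highest. Over heat shock chaperones, 3 of 17 tested members were higher, 8 were lower and 6 did not pass, with a median difference of -0.28, and over the unfolded protein response, 13 of 30 tested members were higher, 8 were lower and 9 did not pass, with a median difference of 0.07. After quantile normalization the heat shock median was -0.10. ERO1B, an oxidase of the endoplasmic reticulum, was higher by 1.08 and MANF, a secreted stress factor, lower (-0.71). Over MAPK feedback genes, 10 of 20 tested members were higher, 4 were lower and 6 did not pass, with a median difference of 0.64. DUSP2, a nuclear MAP kinase phosphatase, read 12.21, 12.09 and 12.18 with the MYC hairpin against 9.57, 8.82 and 9.03 with the SLC7A5 hairpin (3.02 (SE 0.15, adjusted p = 6.5e-10, limma)), and the immediate early factors EGR1 and JUN were higher by 1.93 and 1.81. TRIB1, a pseudokinase that directs proteins to degradation, read 7.37, 8.05 and 7.51 against 10.35, 10.57 and 10.61 (-2.87 (SE 0.15, adjusted p = 1.51e-09, limma)), with 11.47, 11.25 and 11.23 in the controls.

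Further genes had large differences, of which MARCKS was also counted among the NF-kB targets and IL7R among the FOXO and quiescence genes. RASSF4, a RAS-association domain protein, read 11.85, 11.87 and 11.89 in the C-Myc-sh arrays and 7.02, 6.40 and 6.85 in the Slc7a5-sh arrays (5.11 (SE 0.18, adjusted p = 2.98e-11, limma)), and MARCKS, a substrate of protein kinase C at the membrane, 13.05, 12.98 and 12.94 with the MYC hairpin against 8.02, 8.48 and 7.96 with the SLC7A5 hairpin (4.84 (SE 0.14, adjusted p = 4.22e-12, limma)). Controls for both, at 7.14 and 7.32 on average, were within 1 log2 unit of the SLC7A5 hairpin. On the lower side, GIRGL (-3.04), CSMD1 (-3.03), TCL1B (-3.02), a relative of TCL1A, and RUBCNL (-2.97), a regulator of autophagosome fusion, followed ASS1. RUBCNL read 10.25, 10.29 and 10.68 against 13.39, 13.42 and 13.33, with controls at 13.26, 13.28 and 13.24, so the SLC7A5 hairpin was near the control. IL7R, the receptor of early lymphoid growth factor IL-7, was lower (-2.72). Of the 5569 called genes, 106 (0.942% of those tested) had one group mean below the filter level, where the fitted size depends on values near background.

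The remaining lists belong to growth or to chromatin. Over the chaperonin and prefoldin, which fold actin and tubulin, 0 of 14 tested members were higher, 11 were lower and 3 did not pass, with a median difference of -0.42, with CCT5 lower (-0.83). Over splicing factors, 2 of 45 tested members were higher, 33 were lower and 10 did not pass, with a median difference of -0.29, with the core protein SNRPF lowest (-1.05). Quantile normalization brought these medians to -0.26 and -0.14. Over methyltransferases and Polycomb, 10 of 38 tested members were higher, 18 were lower and 10 did not pass, with a median difference of -0.25. With probe sets averaged this median was -0.08, and without possibly cross-binding ones it was -0.00. UHRF1, which reads hemimethylated DNA, and PRMT3, an arginine methyltransferase that acts on a ribosomal protein, were lower (-1.10 and -1.06), while TET2, which oxidises methylcytosine, read 10.77, 11.04 and 11.11 against 9.49, 9.90 and 9.90 (1.21 (SE 0.13, adjusted p = 1.94e-06, limma)). CBX7, a reader of the Polycomb mark, was higher by 1.21. Over the MYC-MAX network, 2 of 17 tested members were higher, 5 were lower and 10 did not pass, with a median difference of -0.04, with the helicase cofactor RUVBL2 lowest (-1.04). Over hypoxia genes, 5 of 24 tested members were higher, 7 were lower and 12 did not pass, with a median difference of -0.03, with BHLHE40, a clock and hypoxia repressor, highest (1.81) and HIF1A higher by 0.56.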

How the data were processed

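Total RNA of 9 Daudi cultures was labelled with biotin by a 3' in vitro transcription kit and hybridised to single-channel arrays, per the labels' protocols. The deposited values are log2 signals of probe sets made with MAS5, per the submitters' processing notes, whose version is not given in the sources used here. On the linear scale the trimmed mean of probe sets (2% at each end) was 497 on every array, which means a common scaling target, and all levels are relative. No value was missing. The values were used as deposited, with no pseudocount. Groups and replicate numbers come from the sample titles.

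Of 54613 probe sets, 41091 had exactly 1 gene symbol in the platform annotation, 1801 had several and 11721 had none. Only those with 1 were used, and 41037 matched a current gene by Entrez ID, with 0 symbols changed. A gene was represented by its probe set with the highest mean over the 9 arrays, and genes at or above 5.77 (54.6 on the linear scale), the median of all probe sets, were tested. A gene high in only 1 group could therefore enter the test through that group. A model with a mean for each of the 3 groups was fitted with limma 3.58.1 in R 4.3.3 (lmFit and eBayes with trend, 6 residual and 8.21 prior degrees of freedom), and the contrast C-Myc-sh minus Slc7a5-sh was tested on both sides with Benjamini-Hochberg adjustment over all tested genes and a threshold of 0.05. Intervals are 95% intervals of the difference, and the number of arrays limits their precision. The procedure was tested on simulated data.

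Where 1 group mean lay below the filter level, a fold is given from the other group's mean to that level. The 53 gene lists, and the comparison itself, were chosen with earlier results of these data known, so a list's count and median are a description beside those of all tested genes. Genes were named by rule: MYC, SLC7A5, SLC3A2, MAX, EZH2 and RXRA, the 15 highest and 15 lowest called differences without overlap, the 6 in each direction with 1 mean below the filter level, and per list the 4 largest called differences without overlap in each direction (the 2 smallest p where none was called), of which some are printed. Of the 220 tested genes named, 45 fall outside this rule and were chosen after their values were seen. Alternatives covered the probe set of a gene, possibly cross-binding probe sets (suffix _s_at or _x_at), quantile normalization, median centring, the filter, a floor, the arrays in the fit, the trend, a replicate block and leaving out each compared array.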

Additional observations from a re-analysis of the deposited data

How the results depend on the processing

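The number of genes called, 5569, stayed between 4001 and 5638 under the alternatives fitted per gene. When each probe set was tested separately, 9367 probe sets were called, which is not a count of genes. Leaving out each compared array in turn gave 5005 to 5259 genes called, with 2401 to 2621 genes called higher and 2598 to 2708 genes called lower. It moved MYC between -0.78 and -0.72 and SLC7A5 between -0.11 and -0.05. Of the 5569 calls, 87.7% to 90.2% were kept without 1 array, and 89.3% of the calls tested there after quantile normalization. With a gene's probe sets averaged 67.6% were kept (3660 of 5411), as were 844 of 993 calls of at least 1 log2 unit. The sign was opposite for 304 of the 5411 and for 7 of the 993. Of 3385 called genes with several probe sets above the filter level, 2539 (75%) had all of them in the called direction. For calls of at least 1 log2 unit this held for 469 of 518 (90.5%). The higher share of calls was 49.3%, and 40.4% with arrays centred on their median. Replicate numbers did not pair the samples: deviations of same-numbered arrays correlated at 0.01, -0.02 and 0.02, and with the replicate block 5526 genes were called.

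Among the genes named, differences that changed sign were those of ANLN (-0.13), BCKDHB (-0.02), CD79A (-0.04) and MAX (-0.10) without possibly cross-binding probe sets, PDK1 (-0.06) and PGK1 (0.07) with the mean of probe sets, and PDK1 (-0.06) with arrays centred. After quantile normalization, PGK1 (0.15), IFI16 (0.04), IRF8 (0.07) and RFX5 (0.09) did so. Leaving out 1 array at a time moved RXRA between -0.14 and 0.35, SOD2 between -0.40 and 0.10, CDKN1A between -0.21 and 0.03 and IRF3 between -0.30 and 0.01, with RXRA at -0.09 without C-Myc-sh replicate 3 and SOD2 at 0.05 without Slc7a5-sh replicate 1. The cause was not tested. Calls of BCKDHB, MAX, SLC7A1 and MDM2 were lost in both probe-set alternatives, those of SAMHD1, NFYB and SOCS1 with the mean of probe sets, and those of B2M, CD79A, IFI16 and POLR3GL without some single arrays. List medians near 0 changed sign under up to 8 of 16 alternatives: oxidative phosphorylation under 5, B-cell and germinal centre, plasma cell and unfolded protein genes under 2, and glycolysis, hypoxia, MYC-MAX network and chemokine genes under 1. Levels near or below the filter level, such as those of IFI44L and CCL22 with the SLC7A5 hairpin, have no firm size.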
